A study of Homo sapiens with 5 samples.

Results

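REST is a zinc finger repressor that keeps neuronal genes silent outside the nervous system, and the 9 genes described here are REST, the corepressors it recruits and the polypyrimidine tract binding proteins PTBP1 and PTBP2. They were taken by gene symbol from a table of 18257 genes: REST, RCOR1, SIN3A, HDAC1, HDAC2, KDM1A, EHMT2, PTBP1 and PTBP2. All 9 symbols were found, 8 passed the filter on low counts, and EHMT2 was listed at 0 in every library. The libraries were made from poly(A) RNA of a human embryonic kidney line, HEK293 T-REx Flp-In, and the cells of every library, the mock included, carry a FLAG-tagged DICER1 insert. Cells were sampled at 18 h in 3 groups: a mock transfection (1 library, labelled as the control sample), siRNA against DICER1, the nuclease that makes mature microRNAs from their precursors (2 libraries, siRNA 1 and siRNA 2), and siRNA against DROSHA, which acts earlier in the same pathway in the nucleus (2 libraries, siRNA 1 and siRNA 2). The design text sets the DICER1 knockdown, as a test of what Dicer binding does to gene regulation, against DROSHA knockdown and mock as controls.

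REST binds a DNA element called RE1 beside neuronal genes. Its amino-terminal domain recruits SIN3A with the histone deacetylases HDAC1 and HDAC2, and its carboxy-terminal domain recruits the CoREST complex of RCOR1, the histone demethylase KDM1A (also called LSD1) and the same deacetylases, while the methyltransferase EHMT2 (G9a) adds repressive histone marks. PTBP1 is the splicing repressor of non-neuronal cells and PTBP2 its neuronal counterpart. MicroRNAs of neurons, among them miR-9 and miR-124, are known to act on parts of this circuit, which is one of the textbook links between microRNAs and neuronal identity.

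A pair of short exons shows how the PTB genes are tied together, and they are printed because the levels of PTBP1 and PTBP2 mRNA are compared below. PTBP1 protein promotes skipping of exon 10 of PTBP2 and of exon 11 of its own gene. Each of these exons is 34 bases long, which leaves a remainder of 1 when divided by 3, so that skipping shifts the reading frame, and the skipped mRNA is known to be degraded. The exons come from GENCODE 29 transcripts on GRCh38, both on the plus strand. PTBP1 exon 11 lies at chr19:807869-807902 and PTBP2 exon 10 at chr1:96806419-96806452. Capitals mark the 25 positions (73.5%) at which both exons carry the same base:
PTBP1 exon 11: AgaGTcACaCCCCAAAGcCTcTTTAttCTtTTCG
PTBP2 exon 10: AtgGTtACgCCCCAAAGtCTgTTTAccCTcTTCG
The counts are summed over whole genes, so the use of these exons was not measured.

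REST itself is a reported target of miR-9-5p, whose mature sequence from RefSeq (GRCh38.p14), with the seed (bases 2 to 8) in capitals, is the following:
hsa-miR-9-5p: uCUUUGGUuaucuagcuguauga
The longest annotated 3' UTR of REST, 3692 bases in GENCODE 29, holds 1 match to the seed, at base 3450, here in capitals:
REST 3' UTR site: ttctgaggcaaACCAAAGgtaaatttctc
The longest 3' UTRs of PTBP1 and PTBP2 also hold 1 match each, and RCOR1, SIN3A, HDAC1, HDAC2 and KDM1A hold 0. Such a match occurs in 15.2% of 11562 tested genes with a 3' UTR, and the level of the microRNA was not measured. Genes with the match had a median log2 ratio to the mock of -0.01 with DICER1 siRNA 1 and 0.004 with DICER1 siRNA 2, against 0.00 and 0.004 in genes without it. No entry was matched for miR-124.

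The 5 libraries held between 7620206 and 8736455 counts. The targeted mRNAs fell as labelled. DICER1 went from 242.9 CPM (CPM is the count relative to the TMM-scaled library size) in the mock to 74.0 and 67.7 CPM with its siRNAs, and DROSHA from 191.3 to 41.2 and 41.9 CPM (edgeR adjusted p = 0.0260 and 0.000882). With the DROSHA siRNAs DICER1 mRNA lay above the mock, at 281.9 and 332.4 CPM (log2 fold change 0.34 ± 0.12, edgeR adjusted p = 0.979). DROSHA mRNA was 194.4 and 192.7 CPM with the DICER1 siRNAs. Epithelial and embryonic kidney markers were present, with VIM at 418.5 to 461.2 CPM and KRT8 at 80.1 to 94.0 CPM. PTPRC, a defining blood marker, was at 0 in all 5 libraries, GFAP, of astrocytes, had at most 5 counts, and the globin gene HBB stood at 21.5 to 26.6 CPM. Separate cultures are not stated in the labels, and the p-values cover the spread among the libraries, part of which may be technical. The 2 libraries of a siRNA group carry different siRNAs, so this spread also holds differences between siRNAs. In such bulk RNA, fewer cells expressing a gene and less RNA per cell cannot be told apart.

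REST was low with the DICER1 siRNAs and high with the DROSHA siRNAs. It stood at 50.7 CPM in the mock library, 46.7 CPM with DICER1 siRNA 1, 34.03 CPM with DICER1 siRNA 2, 52.2 CPM with DROSHA siRNA 1 and 70.8 CPM with DROSHA siRNA 2. Both DICER1 libraries lay below the mock and both DROSHA libraries above it, and the groups did not overlap. The siRNA 2 libraries hold most of the distance: exact 95% Poisson intervals, which cover counting error only, ran from 30.2 to 38.2 CPM with DICER1 siRNA 2 and from 65.1 to 77.0 CPM with DROSHA siRNA 2, outside the mock's 46.0 to 55.8 CPM, while those of both siRNA 1 libraries overlapped it.

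None of these differences in REST passed the test. The fitted log2 fold change was -0.33 ± 0.24 (SE) in DICER1 against mock (edgeR's quasi-likelihood test, adjusted p = 0.896) and 0.28 ± 0.24 in DROSHA against mock (adjusted p = 0.979). Both comparisons share the single mock library. Set directly against each other, DICER1 libraries were below DROSHA libraries, at -0.61 ± 0.20 on the log2 scale (edgeR adjusted p = 0.523, unadjusted p = 0.0180). REST is the 1 tested gene of the 8 with an unadjusted p under 0.05 in that comparison, where 8.34% of all genes have one. Without DROSHA siRNA 1 the difference was -0.82 with an edgeR adjusted p of 0.0401, in a fit that called 427 genes of the whole table in place of 2. That fit has a single DROSHA library, which is assumed to vary like the DICER1 pair, the only pair left to give the spread. Without DROSHA siRNA 2 the difference was -0.38, and without DICER1 siRNA 2 it was -0.40. The library left behind, DROSHA siRNA 2, is the one with the highest REST.

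**Figure D1:**
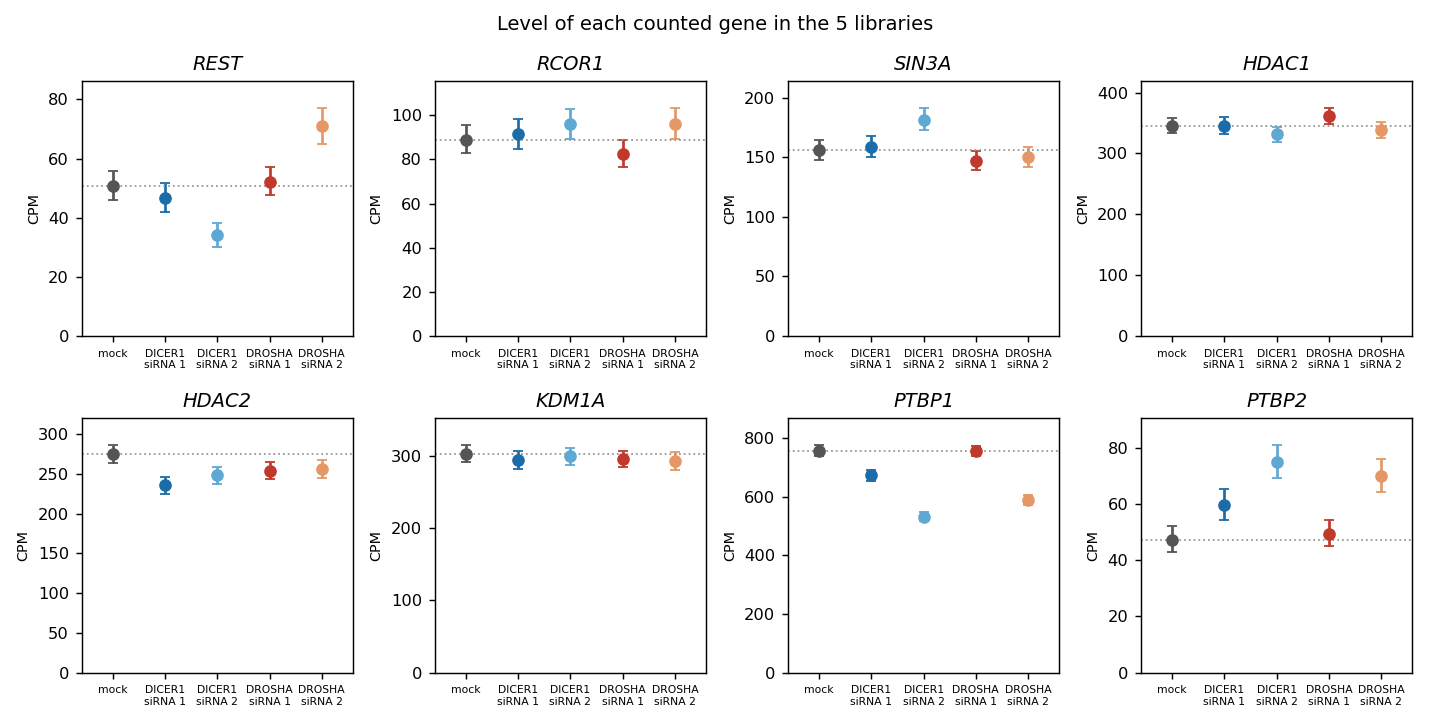
Level of the 8 counted genes in each of the 5 libraries, in CPM (vertical axis, from 0), with exact 95% Poisson intervals that cover counting error only; the dotted line is the mock. REST runs from 34.03 to 70.8 CPM and PTBP2 from 47.3 to 74.8 CPM, while KDM1A stays between 293 and 303 CPM.

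The 2 siRNAs against the same enzyme differed in REST by more than they did in most genes. DICER1 siRNA 2 lay below siRNA 1 by a log2 ratio of -0.46, a larger gap than in 92.8% of tested genes, whose median gap was 0.10. DROSHA siRNA 2 lay above siRNA 1 by 0.44, larger than in 87.2% of genes, whose median gap was 0.14. PTBP1 and PTBP2 had the next widest gaps of the 8 genes in DICER1, wider than in 87.7% and 86.9% of genes, and in DROSHA theirs were wider than in 82.3% and 89.6%. KDM1A had gaps of 0.02 and -0.01, smaller than all but 13.5% and 4.69% of genes.

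The CoREST arm varied little. RCOR1, the scaffold that joins KDM1A and the deacetylases to REST, stood at 89.0 CPM in the mock library, 91.4 and 95.95 CPM with DICER1 siRNA 1 and 2, and 82.5 and 96.05 CPM with DROSHA siRNA 1 and 2. Its log2 fold changes were 0.07 ± 0.12 in DICER1 against mock and 0.00 ± 0.12 in DROSHA against mock (edgeR adjusted p = 0.962 and 0.998). KDM1A, which removes methyl groups from lysine 4 of histone H3, had the narrowest range of the 8 genes: 303.2 CPM in the mock library, 294.6 and 299.6 CPM with DICER1 siRNAs, and 295.4 and 293.1 CPM with DROSHA siRNAs. All 4 siRNA libraries lay below the mock, by log2 ratios between -0.02 and -0.05, less than the standard error of 0.07 of its fitted fold changes. Reads of REST per 100 reads of RCOR1, a ratio that needs no scaling between libraries, were 57.0 in the mock, 51.1 and 35.5 with DICER1 siRNA 1 and 2, and 63.3 and 73.7 with DROSHA siRNA 1 and 2. REST thus varied against a nearly level partner.

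The SIN3 arm held the other gene with opposite sides in the knockdowns. SIN3A, the scaffold of the SIN3 deacetylase complex, stood at 155.9 CPM in the mock library, 159.1 and 181.9 CPM with DICER1 siRNA 1 and 2, and 147.1 and 150.2 CPM with DROSHA siRNA 1 and 2. It was above the mock in both DICER1 libraries and below it in both DROSHA libraries, the reverse of REST, and the distance came mostly from DICER1 siRNA 2. The log2 fold changes were 0.13 ± 0.11 and -0.07 ± 0.11 against the mock and 0.20 ± 0.09 in DICER1 against DROSHA, none past the test (edgeR adjusted p = 0.912, 0.981 and 0.608).

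Of the deacetylases, HDAC1 stood close to the mock and HDAC2 below it. HDAC1 stood at 345.8 CPM in the mock library, 345.7 and 331.4 CPM with DICER1 siRNA 1 and 2, and 361.3 and 338.6 CPM with DROSHA siRNA 1 and 2, with fold changes of -0.03 ± 0.08 and 0.02 ± 0.08 on the log2 scale. HDAC2, its close paralogue in the same complexes, was 274.6 CPM in the mock library, 235.3 and 247.9 CPM with DICER1 siRNAs and 253.5 and 255.7 CPM with DROSHA siRNAs. All 4 siRNA libraries were below the mock in HDAC2. Poisson intervals of both DICER1 libraries ended below the mock's 263.6 to 286.1 CPM, and those of both DROSHA libraries overlapped it. The log2 fold change was -0.18 ± 0.08 in DICER1 against mock and -0.11 ± 0.08 in DROSHA against mock (edgeR adjusted p = 0.865 and 0.979). HDAC2 reads per 100 HDAC1 reads were 79.4 in the mock and between 68.1 and 75.5 in the siRNA libraries. An unusual mock library and an effect common to all siRNAs cannot be told apart here.

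EHMT2 has no usable value. It was listed at 0 in all 5 libraries, as were 15 of the 20 nearest protein-coding genes on chromosome 6 (in RefSeq order) that have a row in the table, against 14.3% of all genes. VARS, a tRNA synthetase that every cell needs, is one of these neighbours and had 1 read in all. The 0 therefore gives no level of G9a. EHMT1, its partner in the same enzyme complex, was counted: 110.2 CPM in the mock and between 101.4 and 118.4 CPM in the siRNA libraries, a log2 fold change of -0.00 ± 0.12 in both comparisons with the mock.

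PTBP1 and PTBP2 stood in opposite orders over the libraries. PTBP1 stood at 757.2 CPM in the mock library, 672.4 CPM with DICER1 siRNA 1, 531.9 CPM with DICER1 siRNA 2, 755.3 CPM with DROSHA siRNA 1 and 589.4 CPM with DROSHA siRNA 2. PTBP2 stood at 47.3, 59.6, 74.8, 49.45 and 69.8 CPM in the same libraries. Ordered from high to low PTBP1, the libraries were mock, DROSHA siRNA 1, DICER1 siRNA 1, DROSHA siRNA 2 and DICER1 siRNA 2, and PTBP2 had exactly the reverse order. In PTBP2 every step of this order lay within counting error, as the Poisson intervals of each neighbouring pair of libraries overlapped. In PTBP1 only those of the mock and DROSHA siRNA 1 overlapped. In both knockdowns the siRNA 2 library had less PTBP1 and more PTBP2 than the siRNA 1 library.

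The differences in the PTB genes did not pass the test. For PTBP1 the log2 fold change was -0.33 ± 0.17 in DICER1 against mock and -0.17 ± 0.17 in DROSHA against mock (edgeR adjusted p = 0.870 and 0.979). For PTBP2 it was 0.51 ± 0.23 and 0.33 ± 0.23 (edgeR adjusted p = 0.870 and 0.979). The direct comparison of DICER1 with DROSHA libraries gave -0.16 ± 0.14 for PTBP1 and 0.18 ± 0.18 for PTBP2, and without DROSHA siRNA 1 the signs turned, to 0.03 and -0.05. The gaps between the siRNAs against the same enzyme were wider: siRNA 2 minus siRNA 1 was -0.34 (DICER1) and -0.36 (DROSHA) for PTBP1, and 0.33 and 0.50 for PTBP2.

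The ratio of the PTB mRNAs shows the shift without any scaling between libraries. PTBP2 reads per 100 PTBP1 reads were 6.25 in the mock (exact 95% interval 5.63 to 6.91), 8.87 with DICER1 siRNA 1, 14.1 with DICER1 siRNA 2, 6.55 with DROSHA siRNA 1 and 11.8 with DROSHA siRNA 2. The interval of DROSHA siRNA 1, 5.93 to 7.22, overlapped that of the mock, and the other 3 did not. With DICER1 siRNA 2 the ratio was 2.25-fold that of the mock and with DROSHA siRNA 2 it was 1.90-fold. PTBP3, the remaining PTB family gene, followed PTBP1: its reads per 100 PTBP1 reads stayed between 17.2 and 19.2, with levels of 137.6 CPM in the mock library, 119.8 and 101.8 CPM with DICER1 siRNA 1 and 2, and 137.9 and 101.4 CPM with DROSHA siRNA 1 and 2. The mock has no replicate, so the ratios are given without a test.

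**Figure D2:**
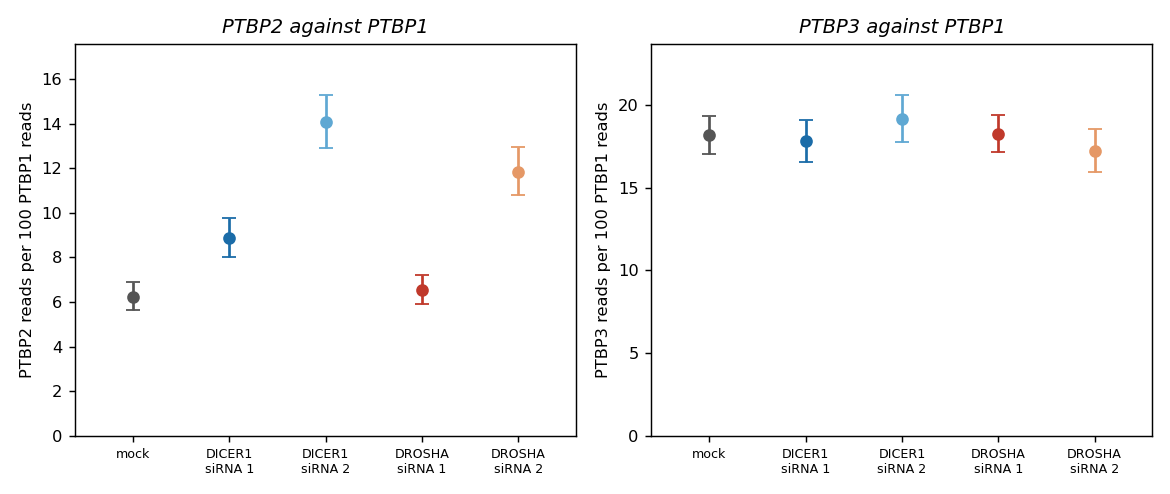
Reads of PTBP2 (left) and PTBP3 (right) per 100 reads of PTBP1 in each library, with exact 95% binomial intervals that cover counting error only; both vertical axes start at 0. The PTBP2 ratio runs from 6.25 in the mock to 14.1 with DICER1 siRNA 2, and the PTBP3 ratio stays between 17.2 and 19.2.

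In none of the comparisons was any of the 8 genes called at an edgeR adjusted p under 0.05. Over all 12234 tested genes 0.00817% of genes were called in each comparison with the mock and 0.0163% in DICER1 against DROSHA. Unadjusted p-values under 0.05 numbered 0 of 8 in DICER1 against mock, where 5.46% of all genes have one (2.48% higher, 2.98% lower), and 0 of 8 in DROSHA against mock, where 3.69% do (2.07% higher, 1.62% lower). In DICER1 against DROSHA the count was 1 of 8, REST, beside 8.34% (4.02% higher, 4.32% lower). DESeq2 and the edgeR likelihood ratio test also called 0 of the 8 in each comparison. In DICER1 against mock 3 of the 8 were higher and 5 lower in both libraries, where 73.1% of all genes do not overlap the mock (36.7% higher, 36.4% lower). In DROSHA against mock 2 were higher, 4 lower and 2 on both sides, beside 63.9% (31.5% higher, 32.4% lower), and in DICER1 against DROSHA 1 was higher and 2 lower, beside 40.9%. The median log2 fold changes of the 8 genes were -0.03, -0.02 and -0.02 in these comparisons, and those of all tested genes 0.0005, -0.005 and 0.004.

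**Figure D3:**
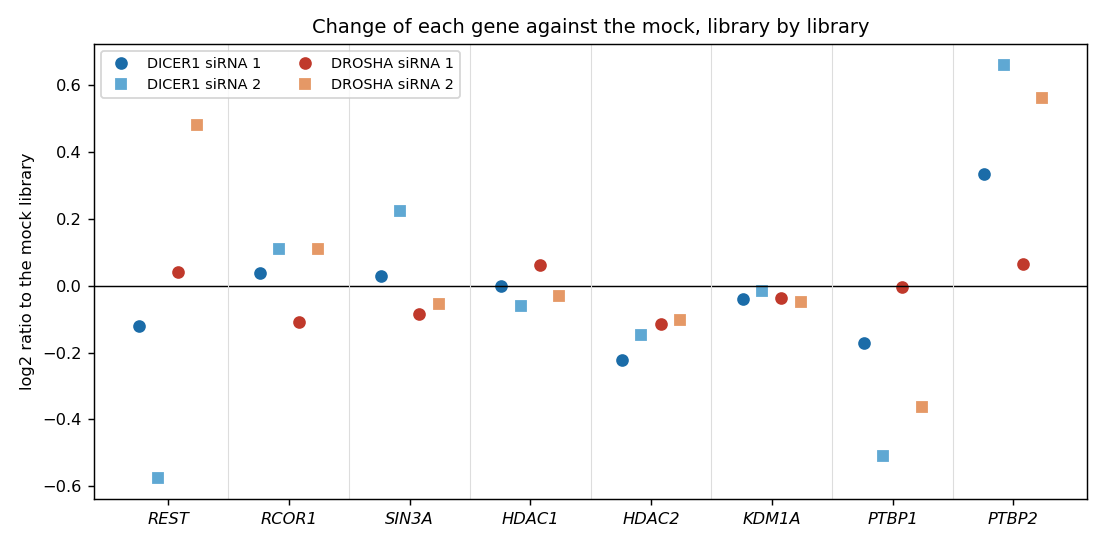
Log2 ratio to the mock (vertical axis) of the 8 counted genes in each siRNA library; circles are siRNA 1 and squares siRNA 2. REST runs from -0.58 to 0.48 and PTBP2 lies above 0 in all 4 libraries, while KDM1A stays between -0.05 and -0.02.

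Levels of different genes are compared per length, as CPM per kilobase of the exons annotated in GENCODE 29. In the mock PTBP1 led at 205 CPM per kilobase, followed by HDAC1 at 163, KDM1A at 96.9, HDAC2 at 27.1, RCOR1 at 15.5, SIN3A at 15.0, REST at 6.69 and PTBP2 at 3.93. RCOR1 and SIN3A did not differ beyond the range each spans over the libraries. The order depends on the annotated length: per kilobase of the median coding transcript HDAC2 stood at 132, REST at 37.5 and PTBP2 at 15.5. PTBP1 and HDAC1 remained the highest on that scale, at 239 and 163 CPM per kilobase.

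Other subunits of the corepressor complexes were examined next. Of 12 further CoREST genes 11 were tested and 0 were called in any comparison, with medians of 0.005 in DICER1 against mock and 0.02 in DROSHA against mock on the log2 scale. RCOR2, a paralogue of RCOR1, stood at 5.47 CPM in the mock and 3.57 to 4.32 CPM in the siRNA libraries (log2 fold changes of -0.36 ± 0.25 and -0.48 ± 0.26). ZNF217, a zinc finger partner of CoREST, stood at -0.16 ± 0.13 in DICER1 against mock, HMG20B, an HMG-box subunit, at -0.07 ± 0.11, and ZMYM3 at 0.07 ± 0.10. The corepressor CTBP1 stood at -0.10 ± 0.10 in DROSHA against mock.

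All 14 further SIN3 genes were tested and 0 were called. The medians were 0.02 in DICER1 against mock and 0.04 in DROSHA against mock, with 7 genes higher and 4 lower in both libraries in each, beside 36.7% and 36.4% of all genes in DICER1 and 31.5% and 32.4% in DROSHA against mock. SIN3B, the paralogue of SIN3A, had 91.4 CPM in the mock library, 102.5 and 102.1 CPM with DICER1 siRNAs and 104.2 and 105.9 CPM with DROSHA siRNAs, log2 fold changes of 0.16 ± 0.09 and 0.20 ± 0.09. RBBP7, a histone chaperone of the complex, stood at 0.13 ± 0.07 in DICER1 against mock, SAP130 at -0.18 ± 0.11 and SAP18 at -0.14 ± 0.09. SAP30L stood at 0.30 ± 0.14 in DROSHA against mock.

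Of 17 further cofactors and repressive histone methyltransferases all were tested and 0 called, with medians of -0.007 and 0.009. EZH2, the methyltransferase of Polycomb complex PRC2, stood at 160.1 CPM in the mock library, 184.3 and 201.9 CPM with DICER1 siRNAs and 177.8 and 193.6 CPM with DROSHA siRNAs. Its log2 fold changes of 0.27 ± 0.10 and 0.21 ± 0.10 had edgeR adjusted p of 0.865 and 0.979. TBL1XR1, a WD-repeat cofactor of transcriptional repression, was lower in all 4 siRNA libraries, at 106.2 CPM in the mock against 62.4 to 93.5 CPM, with log2 fold changes of -0.41 ± 0.22 and -0.44 ± 0.22. Without DROSHA siRNA 1 the latter was -0.77 with an edgeR adjusted p of 0.0237, in a fit of 1 library against 1 that takes its spread from the DICER1 pair alone and called 225 genes in place of 1. The SWI/SNF subunit SMARCC2 stood at 0.13 ± 0.08 in DICER1 against mock.

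Of the genes that set the stability or activity of REST protein 0 of the 12 tested were called. In DICER1 against mock 7 were lower and 3 higher in both libraries, beside 36.4% and 36.7% of all genes. In DROSHA against mock 6 were lower and 0 higher, beside 32.4% and 31.5%. The medians in these comparisons were -0.06 and -0.10. FBXW11, an F-box protein closely related to the ligase subunit that marks REST for degradation, stood at 123.9 CPM in the mock library, 92.3 and 84.4 CPM with DICER1 siRNA 1 and 2, and 118.6 and 85.5 CPM with DROSHA siRNA 1 and 2 (log2 fold changes of -0.49 ± 0.19 and -0.28 ± 0.19). USP7, a deubiquitinase that stabilises REST, stood at 315.2 CPM in the mock library, 285.0 and 281.8 CPM with DICER1 siRNAs, and 244.7 and 275.3 CPM with DROSHA siRNAs (-0.15 ± 0.09 and -0.28 ± 0.09). The telomere protein TERF2 stood at -0.14 ± 0.12 and the deubiquitinase USP15 at 0.18 ± 0.17 in DICER1 against mock. CTDSPL, a small phosphatase that works with REST, stood at -0.48 ± 0.21 in DROSHA against mock. SRRM4, the neuronal splicing factor that converts REST mRNA to a truncated form, had 0 reads in all libraries.

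Among the other splicing regulators 0 of 22 tested were called. In DICER1 against mock 12 were lower and 6 higher in both libraries, beside 36.4% and 36.7% of all genes, and 3 had an unadjusted p under 0.05, beside 5.46%. In DROSHA against mock 11 were lower and 1 higher, beside 32.4% and 31.5%, and 2 had such a p, beside 3.69%. SRRM3, a paralogue of SRRM4, stood at 5.94 CPM in the mock library, 11.9 and 16.2 CPM with DICER1 siRNA 1 and 2, and 7.34 and 4.71 CPM with DROSHA siRNA 1 and 2, a log2 fold change of 1.25 ± 0.32 in DICER1 against mock (edgeR adjusted p = 0.865). CELF2 stood at 116.1, 85.8, 57.6, 106.6 and 132.2 CPM in the same order of libraries (-0.70 ± 0.23), lowest and highest in the same libraries as REST. ELAVL1, the ubiquitous HuR protein that stabilises mRNAs, stood at -0.47 ± 0.13, and ELAVL2, a neuronal relative, at 0.33 ± 0.14. In DROSHA against mock MBNL3 stood at -0.37 ± 0.11 and the neuronal splicing factor NOVA1 at 0.57 ± 0.24.

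**Figure D4:**
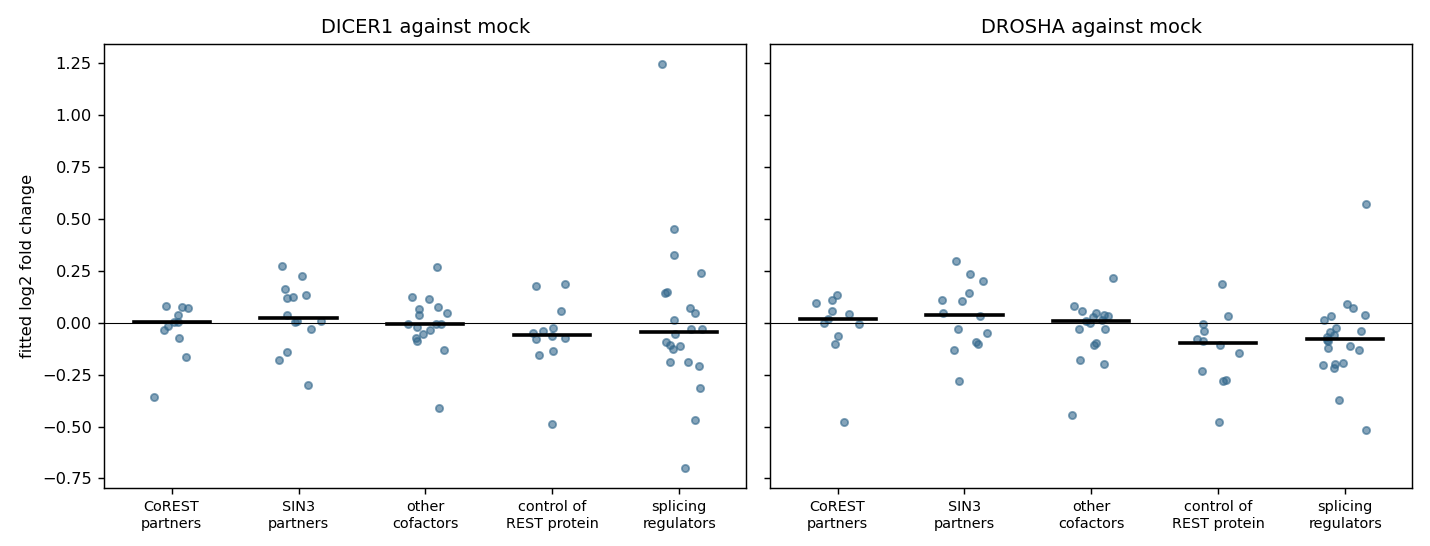
Fitted log2 fold change of the tested partner genes (points, the 8 genes above left out) in DICER1 against mock and DROSHA against mock, with the median of each list as a bar. The medians lie between -0.10 and 0.04, and the highest point, SRRM3, stands at 1.25 in DICER1 against mock.

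Neuronal genes that REST is known to repress mostly had higher values in the DICER1 libraries, though none passed the test. Of a list of 32 such genes, chosen with earlier results of these data known and so no independent evidence of their direction, 24 were tested, 23 of them with at least 1 CPM in the mock. In DICER1 against mock 0 were called and 11 had an unadjusted p under 0.05, all higher, beside 2.48% of all genes. In DICER1 against DROSHA 0 of the 24 were called, 15 had an unadjusted p under 0.05, all of them higher, beside 4.02% of all genes, and 19 were higher and 0 lower without overlap, beside 20.9% of all genes higher. The median log2 ratio to the mock was 0.44 with DICER1 siRNA 1, 0.84 with DICER1 siRNA 2, -0.10 with DROSHA siRNA 1 and -0.29 with DROSHA siRNA 2, beside medians within 0.004 of 0 over all genes. REST in the same libraries stood at -0.12, -0.58, 0.04 and 0.48. The 4 libraries thus had opposite orders in REST and in the list, and a link between them was not tested. In both siRNA 1 libraries the Poisson interval of REST overlapped that of the mock.

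Examples with the smallest p were secretory and synaptic genes. CPLX2, which regulates synaptic vesicle fusion, stood at 2.97 CPM in the mock library, 14.3 and 25.6 CPM with DICER1 siRNA 1 and 2, and 3.10 and 2.42 CPM with DROSHA siRNA 1 and 2 (2.75 ± 0.46 on the log2 scale in DICER1 against mock, edgeR adjusted p = 0.865). SCG3 and CHGA, of secretory granules, stood at 1.62 ± 0.35 and 1.40 ± 0.31, and UNC13A, which primes synaptic vesicles, at 1.72 ± 0.37. In DROSHA against mock RAB3A, a GTPase of synaptic vesicles, stood at -0.79 ± 0.40. The edgeR likelihood ratio test called CPLX2, SCG3, UNC13A and CHGA in DICER1 against mock, and DESeq2 called CPLX2 alone of these 4.

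**Figure D5:**
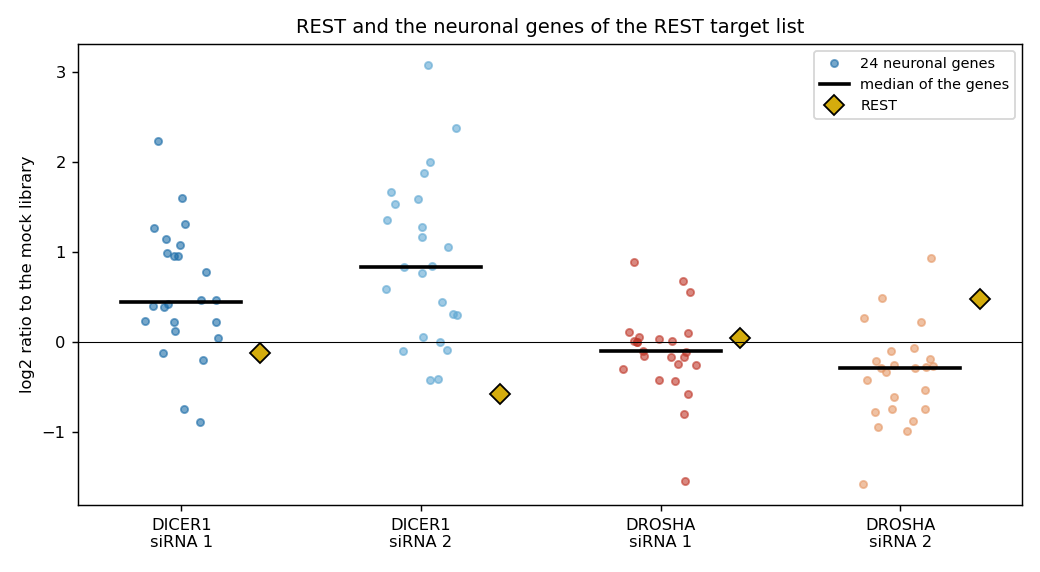
Log2 ratio to the mock (vertical axis) of the 24 tested neuronal genes of the REST target list (points, median as a bar) and of REST (diamond) in each siRNA library. The medians are 0.44, 0.84, -0.10 and -0.29 from left to right, and REST stands at -0.12, -0.58, 0.04 and 0.48.

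Promoters of the list were searched on both strands for an RE1 consensus of 21 bases, entered by hand from general knowledge and not taken from the files, on which every count of matches depends, in the promoter windows around the start sites in RefSeq (GRCh38.p14). At least 14 of its 19 fixed letters were matched by 6 of the 19 list genes with a promoter in that table, and by 2.56% of all 27305 genes. The list was drawn up as neuronal genes bearing RE1, so a share above that of all genes follows from the choice and is no evidence about them. The best matches are printed to show what RE1-like letters stand in these promoters (REST binding was not measured), with letters that match in capitals and each on the strand of the match:
SYN1, chrX:47620070-47620090, minus strand: TTCAGCACCgcGGACAGtGCC
VGF, chr7:101165559-101165579, plus strand: TTCAGCACgctGGACAGCGCC
CELSR3, chr3:48663014-48663034, minus strand: TTCAGCACCagGagCAaCGCt
UNC13A, chr19:17688340-17688360, plus strand: TTCAGCACCggGGgCgcgGaC
STMN3, chr20:63652826-63652846, plus strand: TTCAGCgCCccctcCAGCcCC
TUBB3, chr16:89921811-89921831, plus strand: agCAGCcCCctGGcCAGCcCC
SYN1 and VGF match at 18 letters, CELSR3 at 15 and the remaining ones at 14. A relation between the number of matching letters and the values was not tested. SYN1 stood at 1.78 CPM in the mock and 2.09 and 1.32 CPM with DICER1 siRNAs, on only 15, 16 and 11 reads. VGF, with equally many matching letters, stood at 9.39 CPM in the mock and 12.43 and 16.95 CPM with DICER1 siRNAs. CELSR3, with fewer, stood at 28.4 CPM in the mock and 55.2 and 90.7 CPM with DICER1 siRNAs. Of the REST and PTB genes themselves all 9 had a promoter in the table and 0 reached 14 letters, the highest count being 13.

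Some of the genes carry 7-base words in their longest 3' UTR that went with lower mRNA in these same libraries. Genes with AATCTAA, 13.3% of those scanned, had a median log2 ratio to the mock of -0.08 with DICER1 siRNA 1 and -0.12 with DICER1 siRNA 2, against 0.009 and 0.02 in genes without it. REST and PTBP1 hold the word 1 time each, as does PTBP3, and RCOR1, SIN3A, HDAC1, HDAC2, KDM1A and PTBP2 do not. Genes with ATAGAAT, held 2 times by REST and by PTBP2 and 1 time by HDAC2, had a median of -0.09 with DROSHA siRNA 1. The median of genes without it was 0.01. REST and PTBP2 themselves lay above the mock in that library, at 0.04 and 0.06, and HDAC2 below it, at -0.12. Genes with GTGACTT, held 1 time by SIN3A, HDAC2 and PTBP3, had a median of -0.10 with DROSHA siRNA 2, against 0.01 without it. The words were picked from these libraries in earlier work, and their part in the levels of any of these genes was not tested.

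The genes whose profile over the 5 libraries lay nearest to REST were ABHD5, GFPT1 and UNC5C, with root mean square differences in log2 CPM of 0.03, 0.06 and 0.07 after centring each gene on its mean, among 10614 candidates with at least 5 CPM. ABHD5, a coactivator of triglyceride lipase, stood at 15.1 CPM in the mock library, 14.7 and 10.3 CPM with DICER1 siRNAs and 16.5 and 22.0 CPM with DROSHA siRNAs. Nearest to PTBP1 were FBRS, INSIG1 and FAM60A (0.03, 0.04 and 0.04), and nearest to PTBP2 were SOBP, NR6A1 and TRAK2 (0.05, 0.06 and 0.07). The likeness is over 5 libraries and is given as a description.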

How the data were processed

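Poly(A) RNA of 5 libraries was analysed. The submitters' processing notes list CASAVA 1.8.2, HTSeq, STAR, edgeR and build hg19. The strand setting and annotation were not given in the sources used here, and reads of overlapping or antisense genes may be mixed. The authors deposited raw read counts per gene symbol, without normalization. A gene was tested if it reached 1 CPM in 2 or more libraries (12234 genes). All 5 libraries entered a single fit by group with edgeR 4.0.16 (R 4.3.3), using TMM scaling, the quasi-likelihood test and Benjamini-Hochberg adjustment over all genes. It leaves 2 residual degrees of freedom, and the single mock is assumed to vary like the siRNA pairs. SEs were obtained from the F statistics (size of the log2 fold change over root F). Log2 ratios per library use 0.5 added counts. The steps were tested on simulated data. Alternatives were other scalings and filters, DESeq2 1.42.0, the likelihood ratio test, fewer libraries and a replicate block.

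Named genes were the 9 genes, the targeted enzymes, of each list the 4 genes with the smallest p in DICER1 against mock and the 2 in DROSHA against mock, and the 3 nearest profiles. Some genes that this rule names are not reported here. EHMT1, PTBP3, SRRM4, VARS and the genes with RE1 matches were added after their values were seen. Members and lists were chosen with earlier results of these data known. Of 8 epithelial and kidney markers 8 were tested, and of 8 markers of other cell types 2, with 0 called in any comparison.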

Additional observations from a re-analysis of the deposited data

Results flagged for a closer look

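REST and SIN3A lay on opposite sides of the mock in the knockdowns: REST below it in both DICER1 libraries and above it in both DROSHA libraries, SIN3A the other way round. The direct test of this difference, DICER1 against DROSHA, gave a log2 fold change of -0.61 for REST (edgeR adjusted p = 0.523) and 0.20 for SIN3A (edgeR adjusted p = 0.608), so neither difference passed.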

How the results depend on the processing

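REST, SIN3A, HDAC2 and KDM1A kept their direction under every alternative run in all 3 comparisons. PTBP1 and PTBP2 kept theirs in both comparisons with the mock. The changes of REST, PTBP1 and PTBP2 against the mock were larger with siRNA 2 than with siRNA 1, as was that of SIN3A in DICER1. For HDAC2 the log2 ratios to the mock were -0.22 and -0.15 with DICER1 siRNA 1 and 2, and -0.12 and -0.10 with DROSHA siRNA 1 and 2. Without DICER1 siRNA 2, DICER1 against mock was -0.12 for REST (-0.33 with all libraries), 0.03 for SIN3A (0.13), -0.17 for PTBP1 (-0.33) and 0.34 for PTBP2 (0.51). Without DROSHA siRNA 2, DROSHA against mock was 0.04 for REST (0.28), -0.0009 for PTBP1 (-0.17) and 0.07 for PTBP2 (0.33). The number of genes called in DICER1 against mock, 1 in the reported fit, was 3 with no filter on low counts, 5 with DESeq2, 29 with the edgeR likelihood ratio test and 4 with only the groups compared, and 0 to 5 with a replicate left out. In DROSHA against mock, also 1, it was 3 with the likelihood ratio test and 1 to 225 with a replicate left out (225 without DROSHA siRNA 1, 4 without DROSHA siRNA 2). In DICER1 against DROSHA, 2 as reported, it was 12 with no filter, 24 with DESeq2, 130 with the likelihood ratio test and 1 to 427 with a replicate left out (427 without DROSHA siRNA 1, 18 without DROSHA siRNA 2, 4 without DICER1 siRNA 1, 1 without DICER1 siRNA 2). With the siRNA number as a replicate block it was 4, with 0 of the 8 genes called. The numbers name separate siRNAs and do not pair the libraries, whose deviations had a correlation of 0.03 across 8235 genes.

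Log2 fold changes reversed as follows, and the cause was not tested. HDAC1 in DICER1 against mock was 0.0022 without DICER1 siRNA 2 (range with a replicate left out -0.0644 to 0.0022), and in DROSHA against mock -0.0337 without DROSHA siRNA 1 (range -0.0337 to 0.0658). RCOR1 in DROSHA against mock was -0.0017 with no filter and -0.1071 without DROSHA siRNA 2 (range -0.1071 to 0.1066). In DICER1 against DROSHA, without DROSHA siRNA 1, RCOR1 was -0.0353 (range -0.0353 to 0.182), PTBP1 0.0305 (range -0.3402 to 0.0305) and PTBP2 -0.0517 (range -0.0517 to 0.4433). REST in that comparison ranged from -0.8538 to -0.3779 with a replicate left out. The median of the REST target list in DICER1 against DROSHA, 0.85 as reported by the fit, was 0.50 with no filter, 1.34 with at least 5 CPM and 0.56 without DICER1 siRNA 2. Fits without a siRNA library take their spread from the remaining pair. The single mock, and 2 libraries in each siRNA group, limit every comparison.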
